A study of Homo sapiens with 18 samples.

Results

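The 31 genes described here encode the enzymes that make cholesterol and fatty acids, the sterol regulatory element-binding proteins (SREBPs) that switch those enzymes on, and proteins that move sterol. They were taken by symbol from a written list, with no measured value used, and all 31 of 31 were found in each of the 3 deposited tables, among 15543, 31585 and 32555 listed genes. By role they comprise 7 enzymes of the mevalonate stage, 4 of squalene and lanosterol, 7 late sterol enzymes, 4 genes of the SREBP switch, 2 of sterol transport and 7 fatty acid enzymes.

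RNA sequencing covered 6 groups of human cell lines with 3 libraries each, 18 in all. SW480 is a line from a human colorectal carcinoma. SW480-P is its parental form, and SW480-LM3 came from it by 3 rounds of in vivo selection after injection into the spleen, so SW480-LM3 is a selected population that grew in an animal host. LX-2 is a human hepatic stellate cell line. It was given exosomes, small vesicles shed by cells, that contained NID1 (EV-XP-NID1-LX-2) or control exosomes (EV-XP-LX-2). The labels give an exposure of 48 h for the NID1 arm and do not explain the letters XP. NID1 encodes nidogen-1, a linking protein of basement membranes. LV5-NID1 cells are SW480 cells that overexpress NID1 and were treated for 72 h with GW4869, which blocks neutral sphingomyelinase and so reduces the shedding of exosomes. LV5 is their control, and the labels do not say whether it received GW4869, so an effect of NID1 and an effect of the drug cannot be told apart. The labels do not name separate cultures, so the p-values speak only of the spread among libraries, and that spread may be technical.

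Cells build cholesterol from acetyl-CoA through mevalonate, isoprenoid diphosphates, squalene and lanosterol, and build fatty acids from the same acetyl-CoA. SREBPs are made as membrane proteins of the endoplasmic reticulum. When sterol is scarce, SCAP escorts them to the Golgi, where proteases free the part that enters the nucleus and activates these genes; when sterol is plentiful, INSIG proteins hold SCAP back. SREBF2 encodes the SREBP known mainly for cholesterol genes, and SREBF1 the forms known mainly for fatty acid genes. Hepatic stellate cells store retinoid and lipid when quiescent and lose that store when activated, and tumour cells often make their own fatty acids.

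The promoters are where SREBPs and their partner NF-Y are known to bind. RefSeq promoter windows (GRCh38.p14, 250 bases upstream of a start) were matched for 27 of the 31 genes, in 36 windows; ACAT2, FASN, FDFT1 and SQLE have no entry. The sterol regulatory element, searched as TCACNCCAC on both strands, was found in 1 of the 27 genes, SREBF2, and in 1.1% of all 27305 genes. The CCAAT box to which NF-Y binds, searched as CCAAT or ATTGG, was found in 19 of the 27 (70.4%) and in 37.0% of all genes. The E-box CACGTG, which is its own reverse complement, was found in 4 of the 27 (14.8%) and in 7.7% of all genes. No motif contains another, and matches that overlap were each kept. A match describes letters and is neither a measured site nor a cause. Having no match to these exact letters within 250 bases does not show that a gene lacks such an element.

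Stretches of 6 promoters are shown because the results turn on these genes: the SREBP genes themselves, a mevalonate enzyme, a pair of late sterol enzymes and a fatty acid desaturase. Each runs 5′ to 3′ on the gene's strand and stops where an annotated protein-coding exon begins. Capitals mark TCACNCCAC, CCAAT or ATTGG. SREBF2 lies at chr22:41832855-41833078 (plus strand), SREBF1 at chr17:17837003-17837236 (minus), MVD at chr16:88663162-88663341 (minus), MSMO1 at chr4:165327419-165327622 (plus), DHCR7 at chr11:71448436-71448643 (minus) and SCD at chr10:100346983-100347123 (plus).
SREBF2: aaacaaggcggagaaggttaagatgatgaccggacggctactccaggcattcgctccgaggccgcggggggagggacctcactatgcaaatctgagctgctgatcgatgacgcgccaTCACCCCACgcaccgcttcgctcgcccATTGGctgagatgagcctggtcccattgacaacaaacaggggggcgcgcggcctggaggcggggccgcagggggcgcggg
SREBF1: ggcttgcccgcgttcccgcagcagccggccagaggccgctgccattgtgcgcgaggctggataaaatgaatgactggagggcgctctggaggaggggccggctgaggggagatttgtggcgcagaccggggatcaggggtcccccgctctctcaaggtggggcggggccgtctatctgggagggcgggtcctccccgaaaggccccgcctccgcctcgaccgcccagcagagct
MVD: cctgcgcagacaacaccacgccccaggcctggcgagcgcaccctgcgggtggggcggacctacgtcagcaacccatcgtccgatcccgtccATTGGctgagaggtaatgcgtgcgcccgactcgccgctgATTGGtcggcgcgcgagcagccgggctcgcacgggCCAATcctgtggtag
MSMO1: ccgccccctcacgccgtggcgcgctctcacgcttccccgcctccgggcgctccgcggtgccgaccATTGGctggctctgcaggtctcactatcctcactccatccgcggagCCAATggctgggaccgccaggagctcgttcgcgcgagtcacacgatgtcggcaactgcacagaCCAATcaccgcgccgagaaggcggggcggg
DHCR7: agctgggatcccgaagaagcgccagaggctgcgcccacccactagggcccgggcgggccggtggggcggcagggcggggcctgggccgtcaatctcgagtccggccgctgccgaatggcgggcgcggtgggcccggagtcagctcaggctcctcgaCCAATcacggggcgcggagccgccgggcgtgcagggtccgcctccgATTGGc
SCD: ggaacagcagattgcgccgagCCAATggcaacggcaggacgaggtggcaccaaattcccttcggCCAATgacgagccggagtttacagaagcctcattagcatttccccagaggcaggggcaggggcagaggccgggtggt
The SREBF2 stretch holds the sterol element and a CCAAT box close together, whereas the SREBF1 stretch from this start holds neither. The MSMO1 stretch holds 3 CCAAT boxes, with another beyond its end in the window, and those of MVD, DHCR7 and SCD hold 3, 2 and 2. MVD, MSMO1, DHCR7 and SCD were all called lower in LX-2 after NID1 exosomes. In SW480-LM3, MVD, DHCR7 and SCD were called higher and MSMO1 lower. MVK and IDI1 were called higher in LX-2, with 5 CCAAT boxes in the MVK window and up to 3 in those of IDI1. SREBF1, CYP51A1, FADS1, FADS2 and SCAP were called lower in LX-2, and their windows hold no CCAAT box. DHCR7 has another window, from a different start, without a match. Whether the boxes bear on these changes was not tested.

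The recovered read totals were 15504205 to 18965163 in SW480-P and 15531517 to 16586016 in SW480-LM3, and depth is unknown in LX-2, LV5 and LV5-NID1, whose levels are TPM, transcripts scaled by gene length to a fixed total per library. NID1 was at a signal of 0.352 to 0.582 in SW480-P and 44.7 to 49.1 in SW480-LM3. In these libraries 1 read gives a signal of 0.054 to 0.071, so a signal under 1 can stand for several reads. NID1 was at 0 to 0.04 TPM in LV5 and 348 to 379 TPM in LV5-NID1. In LX-2 it was at 25.1 to 26.0 TPM in the controls and 18.0 to 22.6 TPM after NID1 exosomes, called lower (log2 fold change -0.28, adjusted p = 0.0372); the level in recipient cells does not check what the exosomes contained. Of the 7 colon epithelial markers tested in SW480-P and SW480-LM3, 6 were higher in SW480-LM3 (summed signal 3520 to 3788 against 13050 to 13760), and their part in the results was not tested. SW480-LM3 resembled LV5, an SW480 derivative, less (Spearman's rho 0.693 over 15000 genes) than SW480-P did (0.887). With the LX-2 controls SW480-LM3 was at 0.714 over 14840 genes, slightly above its value with LV5, and SW480-P was at 0.795. These correlations set signal that is not corrected for gene length against TPM, over gene sets of different size. The small gap between 0.693 and 0.714 therefore carries little weight. Change during selection and another origin of the cells cannot be told apart. LX-2 expressed 8 of 10 stellate and fibroblast markers above the filter, with COL1A1 at 203 TPM in the controls and LRAT, a marker of retinoid-storing stellate cells, at 0.01 TPM. In LV5 the epithelial markers CDX2, CDH17 and VIL1 were at 0.18, 0.11 and 0.19 TPM. Of the same list, KRT20, LGALS4 and CDX1 were at 0.76, 0.74 and 0.01 TPM. KRT8 and KRT18 were high in LV5, at 780 and 861 TPM, with EPCAM at 5.03 and KRT19 at 2.92 TPM. LV5-NID1 replicate 3 stood apart from its group: correlations between LV5-NID1 libraries ran from 0.959 to 0.989, against 0.985 to 0.996 in the other groups. Because these are bulk samples, fewer cells of a type and less RNA per cell cannot be told apart.

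Levels can be set against each other between genes only where length is corrected, that is in TPM. In the LX-2 controls the highest level among the 31 was that of FDPS, which makes farnesyl diphosphate, at 177 ± 10.2 TPM (SD, n = 3), followed by ACLY, which makes cytosolic acetyl-CoA from citrate, at 136 ± 4.2 TPM. In LV5 the order was led by FDPS at 460.1 ± 11 TPM, SCD at 219.7 ± 16.9 TPM, FADS1 at 185 ± 14.5 TPM and FDFT1 at 183 ± 5.05 TPM. FADS1 and FDFT1 are neighbours that did not differ beyond their spread. The exporter ABCA1 was the lowest in both lines, at 6.72 ± 0.217 TPM in the LX-2 controls and 0.06 ± 0.01 TPM in LV5, and TM7SF2 was the next lowest, at 12.1 ± 2.59 and 6.45 ± 1.3 TPM.

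**Figure D1:**
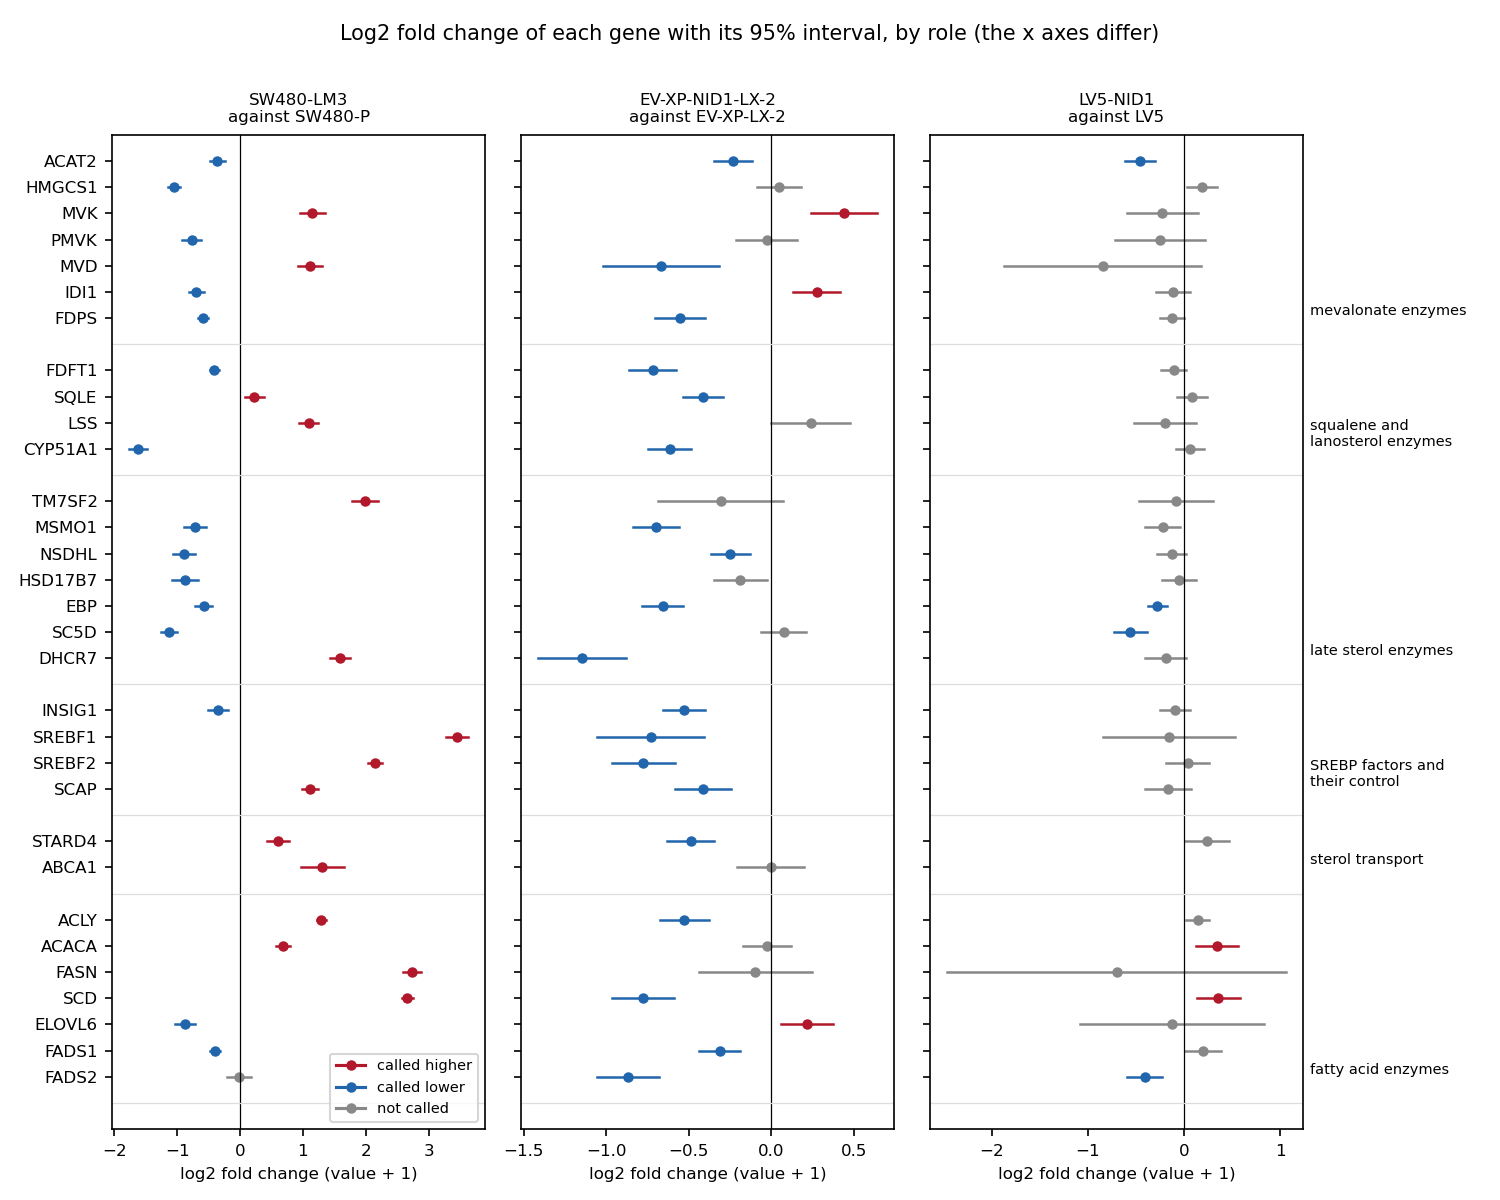
Log2 fold changes of the 31 genes in each comparison (x axes in log2 units, on ranges that differ between panels), grouped by role, with points for the limma estimate and bars for its 95% interval; red marks genes called higher, blue lower and grey not called. In the SW480-LM3 panel 15 genes lie on each side, in the LX-2 panel 19 are blue and 3 red, and in the LV5-NID1 panel 4 are blue and 2 red.

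The first comparison asked how the selected SW480-LM3 cells differed from their parent. SW480-LM3 had 11.4-fold more SREBF1 mRNA and 4.53-fold more SREBF2 mRNA than SW480-P, and 6.75-fold more FASN and 6.37-fold more SCD mRNA. Most sterol enzymes did not follow: of 18, 12 were lower and 6 higher. Over the 31 genes, 15 were called higher and 15 lower by limma at an adjusted p under 0.05. The background was nearly as high, since 43.9% of the 14527 genes tested were called higher and 43.9% lower, so the counts say little about these genes as a group and the size of each change says more. The median log2 fold change of the 31 was -0.01, beside 0.00 over all genes tested.

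Values in this comparison are reads scaled between libraries but not by gene length, so levels of different genes are not comparable, and sums or ratios over genes are compared only between libraries. SREBF1 (ENSG00000072310; GENCODE 29, GRCh38, chromosome 17, 17810399 to 17837002, minus strand) had a signal of 22.2, 19.2 and 16.4 in the SW480-P libraries and 211, 227 and 221 in the SW480-LM3 libraries. The lowest SW480-LM3 library lay far above the highest SW480-P library, and the log2 fold change was 3.45 (SE 0.082, adjusted p = 1.43e-14). SREBF2 (ENSG00000198911; chromosome 22, 41833079 to 41907308, plus strand) had a signal of 42.5, 40.2 and 39.0 in SW480-P and 174, 186 and 192 in SW480-LM3, again without overlap (log2 fold change 2.15, SE 0.051, adjusted p = 1.51e-14). The ratio of SREBF1 to SREBF2 signal was 0.42 to 0.523 in SW480-P and 1.15 to 1.22 in SW480-LM3, a shift between the groups in a ratio whose own size has no meaning without length correction. SCAP, the escort, was 2.2-fold higher (28.2 ± 1.05 against 61.9 ± 1.84, SD, n = 3). INSIG1, the retention protein and itself a classical SREBP target, went the other way: its signal was 38.7, 41.4 and 41.7 in SW480-P and 28.6, 34.5 and 32.1 in SW480-LM3 (log2 fold change -0.35, SE 0.074, adjusted p = 0.000469). The INSIG1 call was lost when each library was scaled to the same total (-0.07, adjusted p = 0.383). Of the 4 genes of the switch, 3 were called higher and 1 lower.

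The 7 mevalonate enzymes split into 2 higher and 5 lower. HMGCS1, which condenses acetoacetyl-CoA with acetyl-CoA, fell from signals of 121, 122 and 131 to 59.1, 60.03 and 59.1, 2.09-fold lower with no overlap (log2 fold change -1.05, SE 0.046, adjusted p = 1.52e-11). MVD, which decarboxylates mevalonate diphosphate to isopentenyl diphosphate, rose from 11.9, 10.8 and 10.6 to 25.2, 24.0 and 26.4 (2.26-fold; log2 fold change 1.11, SE 0.088, adjusted p = 1.48e-08). MVK, the kinase that first phosphorylates mevalonate, rose 2.36-fold. The other 4 were lower by smaller amounts, with log2 fold changes of -0.77 for the kinase PMVK, -0.69 for the isomerase IDI1, -0.59 for FDPS and -0.36 for ACAT2, which joins acetyl-CoA units. The ACAT2 call was lost when each library was scaled to the same total (-0.08, adjusted p = 0.185). Members of this linear stage therefore moved in opposite directions between the same libraries.

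Among the squalene and lanosterol enzymes, 2 were higher and 2 lower. CYP51A1, which removes a methyl group from lanosterol, fell from 118, 121 and 134 to 43.2, 35.9 and 40.6, a 3.12-fold difference and the largest fall among the 31 (log2 fold change -1.62, SE 0.068, adjusted p = 8.34e-12). LSS, which closes the rings to form lanosterol, rose from 28.9, 30.3 and 26.0 to 58.8, 64.6 and 61.3 (2.17-fold; log2 fold change 1.09, SE 0.068, adjusted p = 8.99e-10). Neither gene's groups overlapped. FDFT1, the squalene synthase, was lower by a log2 fold change of -0.41, and SQLE, the squalene epoxidase, was higher by 0.23 (adjusted p = 0.00518), a call lost with quantile normalization (0.12, adjusted p = 0.107).

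Of the 7 late sterol enzymes, 2 were higher and 5 lower. DHCR7 (ENSG00000172893; chromosome 11, 71428193 to 71452868, minus strand), the reductase that yields cholesterol from its direct precursor, had a signal of 41.4, 35.8 and 33.3 in SW480-P and 108, 121 and 108 in SW480-LM3 (3.05-fold; log2 fold change 1.59, SE 0.074, adjusted p = 2.76e-11). TM7SF2, a sterol reductase earlier in the chain, had 5.70, 6.0 and 6.34 in SW480-P and 25.9, 28.4 and 25.9 in SW480-LM3 (4.44-fold; log2 fold change 1.98, SE 0.096, adjusted p = 4.57e-11). Both reductases were higher in every SW480-LM3 library. The desaturase SC5D was lower by -1.13 in log2 units, NSDHL, which decarboxylates sterol intermediates, by -0.89, the ketoreductase HSD17B7 by -0.87, the methylsterol oxidase MSMO1 by -0.72 and the isomerase EBP by -0.58. The summed signal of all 18 sterol enzymes was 1256 to 1260 in SW480-P and 948.3 to 978.3 in SW480-LM3. The signal summed over all listed genes was lower too, at 1102964 to 1104681 in SW480-P and 899507 to 908688 in SW480-LM3. The fall in the sterol sum therefore goes partly with the smaller total. With each library scaled to the same total, EBP was at -0.29, FDPS at -0.30 and FDFT1 at -0.12, all still called lower by limma, and DHCR7 was at 1.87.

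Both sterol transport genes rose. STARD4, which carries cholesterol between membranes and is a SREBP target, had a signal of 31.7, 36.4 and 37.5 in SW480-P and 55.0, 47.7 and 58.8 in SW480-LM3 (1.53-fold; log2 fold change 0.60, SE 0.082, adjusted p = 6.93e-06). ABCA1, which exports cholesterol and answers to the sterol-sensing receptor LXR, was barely detected in SW480-P, with 4, 10 and 7 reads against 58, 39 and 41 in SW480-LM3. Its signal was 0.285, 0.582 and 0.493 against 3.37, 2.28 and 2.22 (5.79-fold; log2 fold change 1.31, SE 0.162, adjusted p = 2.34e-06), and the log2 value understates the fold because 1 was added to values below 1.

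The fatty acid enzymes showed the largest rises among the enzymes. SCD (ENSG00000099194; chromosome 10, 100347124 to 100364834, plus strand), which makes monounsaturated fatty acids, had a signal of 136, 127 and 135 in SW480-P and 805, 859 and 872 in SW480-LM3 (log2 fold change 2.66, SE 0.04, adjusted p = 1.95e-16). FASN (ENSG00000169710; chromosome 17, 82078333 to 82098332, minus strand), which assembles palmitate, had 55.2, 57.3 and 45.8 in SW480-P and 348, 367 and 354 in SW480-LM3 (log2 fold change 2.74, SE 0.066, adjusted p = 1.67e-14). The libraries of each group lay close together and the groups were far apart. ACLY rose 2.46-fold and ACACA, which makes malonyl-CoA, 1.62-fold, so 4 of the 7 fatty acid enzymes, ACLY, ACACA, FASN and SCD, were higher. ELOVL6, which lengthens palmitate, and FADS1, a desaturase of polyunsaturated fatty acids, were lower, with log2 fold changes of -0.87 and -0.40. FADS2, the other such desaturase, had 19.4, 17.2 and 17.3 in SW480-P and 18.6, 18.1 and 16.7 in SW480-LM3, with overlapping groups and a log2 fold change of -0.01 (95% interval -0.20 to 0.18, adjusted p = 0.9). The summed signal of the 7 fatty acid genes was 593.4 to 600.0 in SW480-P and 1715 to 1790 in SW480-LM3.

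**Figure D2:**
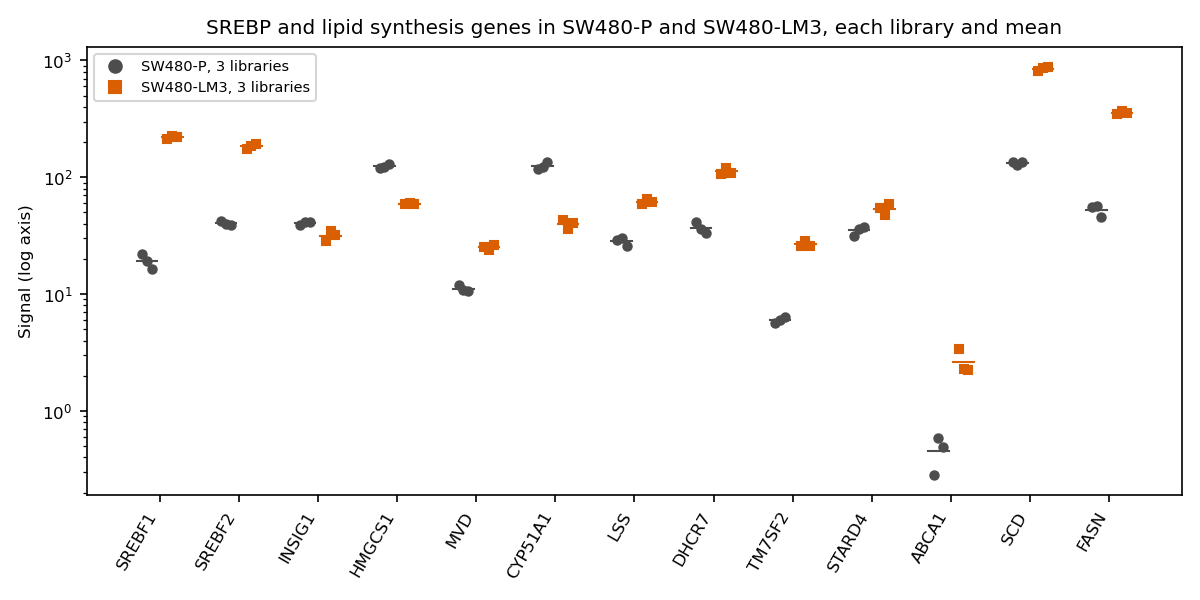
Signal (scaled reads, log axis, not corrected for gene length) of 13 genes in each of the 3 SW480-P and 3 SW480-LM3 libraries. Each library is 1 point. SREBF1, SREBF2, SCD and FASN are higher in every SW480-LM3 library, HMGCS1 and CYP51A1 are lower in every SW480-LM3 library, and INSIG1 differs little.

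Other genes of these pathways were read from lists of related genes. Of 13 SREBP processing and partner genes, 4 were higher and 7 lower: the transcription factor SP1 by a log2 fold change of 1.15, against -1.41 for NFYB, an NF-Y subunit. Of 8 genes of LXR and sterol efflux or uptake, 4 were higher and 3 lower, with 2.34 for the exporter ABCG1, 1.38 for the phospholipid remodeller LPCAT3 and -1.54 for OSBPL5. Of 9 genes of sterol storage and lysosomal export, 5 were higher and 4 lower, with -2.91 for SOAT1, which esterifies cholesterol, -2.69 for NPC2, which carries cholesterol out of lysosomes, and 2.48 for the sterol-binding OSBP. The isoprenoid branch had 3 higher and 5 lower of 9 (PDSS1 -1.43, NUS1 0.64, FNTA -0.64). In fatty acid activation, elongation and esterification 11 were higher and 5 lower of 18 tested, led by SCD5, another stearoyl-CoA desaturase, at 3.20, with TECR at 1.21 and ACSL4 at -0.71. In fatty acid oxidation 4 were higher and 6 lower of 11 tested, with 1.48 for CPT1A, which starts mitochondrial import, and 1.48 for ACADVL. Each of these lists held members moving each way, beside a background of 43.9% each way.

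The calls of all 30 genes were made in the same direction by edgeR and DESeq2 on the recovered reads. When trends of the fold change with transcript GC content and length were removed, a setting added after seeing the data, SCAP (0.12, adjusted p = 0.0529), INSIG1 (-0.15, 0.0574), HSD17B7 (0.00, 0.977), ACACA (0.08, 0.139) and MSMO1 (0.13, 0.122) lost their calls, FADS2 became lower (-0.85, adjusted p = 2.17e-07), and other called genes moved by over 1.5 times. Toward 0 went SREBF2 (1.22), FASN (1.40), ACLY (0.78), MVK (0.58), LSS (0.18), HMGCS1 (-0.64), SC5D (-0.37) and IDI1 (-0.28). Away from 0 went STARD4 (0.93), SQLE (0.40) and FADS1 (-0.78). The cut of 1.5 times is on log2 values and so passes over sizeable moves of other genes. Among these, SREBF1 went from 3.45 to 2.43, DHCR7 from 1.59 to 1.08 and MVD from 1.11 to 0.76. As a description, the log2 fold change rose with GC content (Spearman's rho 0.58 over the 31 genes, 0.27 over 14335 genes).

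The second comparison asked what exosomes with NID1 did to LX-2 stellate cells. After NID1 exosomes the whole SREBP switch was lower: SREBF2 by 1.73-fold, SREBF1 by 1.7-fold, INSIG1 by 1.46-fold and SCAP by 1.34-fold. DHCR7 (2.26-fold), FADS2 (1.85-fold), SCD (1.74-fold) and FDFT1 (1.66-fold) were the most reduced enzymes. Of the 31 genes, 19 were called lower, 3 higher and 9 were not called, where 24.6% of the 15802 genes tested were called lower and 17.8% higher. The median log2 fold change of the 31 was -0.41, beside -0.05 over all genes tested. Of 18 sterol enzymes 10 were lower and 2 higher. The summed level of these 18 was 946.9 to 986.1 TPM in the controls and 756.1 to 799.6 TPM after NID1 exosomes, without overlap. Stellate and fibroblast markers were also lower, 4 of 8 tested (sum 2396 to 2568 TPM against 1693 to 2006 TPM), and their part in the result was not tested.

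The 4 genes of the switch all fell. SREBF1 had 18.6, 20.7 and 18.3 TPM in the control libraries and 13.4, 8.84 and 11.7 TPM after NID1 exosomes (log2 fold change -0.73, SE 0.138, adjusted p = 0.00549). SREBF2 had 47.4, 42.9 and 45.4 TPM in the controls and 28.8, 23.6 and 25.9 TPM after NID1 exosomes (log2 fold change -0.78, SE 0.081, adjusted p = 0.000635). INSIG1 had 38.6, 39.6 and 41.9 TPM against 27.7, 26.9 and 27.6 TPM (log2 fold change -0.53, SE 0.054, adjusted p = 0.000585). In none of these genes did the groups overlap, and the second exosome library was the lowest for both SREBP genes. SCAP had 43.4, 43.8 and 43.5 TPM against 34.9, 29.2 and 33.5 TPM (log2 fold change -0.41, SE 0.072, adjusted p = 0.00396). The ratio of SREBF1 to SREBF2 TPM was 0.393 to 0.481 in the controls and 0.375 to 0.464 after NID1 exosomes, overlapping, so both fell by like amounts.

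The mevalonate enzymes were divided. FDPS fell from 187, 167 and 175 TPM to 121, 112 and 127 TPM (1.47-fold; log2 fold change -0.55, SE 0.064, adjusted p = 0.000896). MVK rose from 17.2, 17.8 and 19.4 TPM to 25.8, 22.4 and 26.9 TPM (1.38-fold; log2 fold change 0.44, SE 0.085, adjusted p = 0.00583). Neither gene's groups overlapped, although these enzymes serve the same route. IDI1 rose by a log2 fold change of 0.28 (adjusted p = 0.0103), while MVD fell by 0.67 (adjusted p = 0.0104) and ACAT2 fell by 0.23 (adjusted p = 0.0092). HMGCS1 was at 67.7 ± 1.87 TPM in the controls and 70.2 ± 4.27 TPM after NID1 exosomes and was not called (log2 fold change 0.05, 95% interval -0.08 to 0.18), and PMVK was not called (-0.03, 95% interval -0.21 to 0.16).

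Of the squalene and lanosterol enzymes 3 fell. FDFT1 had 64.9, 59.8 and 62.4 TPM in the controls and 39.8, 35.6 and 37.2 TPM after NID1 exosomes (log2 fold change -0.72, SE 0.06, adjusted p = 0.000324). CYP51A1 had 86.4, 81.8 and 84.6 TPM against 55.9, 51.2 and 56.9 TPM (1.54-fold; log2 fold change -0.62, SE 0.056, adjusted p = 0.000426). Every exosome library lay below every control library for both. SQLE fell by 0.41 (adjusted p = 0.00116). LSS stood apart from its neighbours with a higher mean, 51.2 ± 6.69 against 43.0 ± 2.82 TPM, and was not called (log2 fold change 0.24, 95% interval 0.00 to 0.48, adjusted p = 0.0965).

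Of the 7 late sterol enzymes 4 fell and none rose by limma (at an unadjusted p under 0.05, 5 were lower and 0 higher). EBP had 52.7, 49.7 and 48.6 TPM in the controls and 31.5, 31.3 and 31.7 TPM after NID1 exosomes (1.6-fold; log2 fold change -0.66, SE 0.052, adjusted p = 0.000295). MSMO1 had 51.0, 50.5 and 54.6 TPM against 32.9, 29.99 and 32.2 TPM (1.64-fold; log2 fold change -0.70, SE 0.059, adjusted p = 0.000346). DHCR7 had 55.4, 45.5 and 53.8 TPM against 25.9, 19.7 and 22.9 TPM, the largest fall among the 31 (log2 fold change -1.15, SE 0.114, adjusted p = 0.00055). The groups were separate for all 3 genes. NSDHL fell by 0.25 (adjusted p = 0.00704). HSD17B7 (log2 fold change -0.19, adjusted p = 0.061), TM7SF2 (-0.31, adjusted p = 0.166) and SC5D (0.08, adjusted p = 0.325) were not called.

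STARD4 fell from 73.1, 69.6 and 76.4 TPM to 53.1, 48.5 and 53.8 TPM (1.41-fold; log2 fold change -0.49, SE 0.061, adjusted p = 0.00113), with no overlap. ABCA1 was at 6.72 ± 0.217 TPM in the controls and 6.71 ± 0.511 TPM after NID1 exosomes (log2 fold change 0.00, 95% interval -0.21 to 0.20), with overlapping groups.

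Among fatty acid enzymes 4 fell and 1 rose. FADS2 had 71.4, 62.3 and 68.9 TPM in the controls and 36.9, 33.2 and 39.5 TPM after NID1 exosomes (log2 fold change -0.87, SE 0.081, adjusted p = 0.000461). SCD had 49.6, 42.5 and 48.2 TPM against 28.6, 24.9 and 27.0 TPM (log2 fold change -0.78, SE 0.08, adjusted p = 0.000592). These desaturases were separate between groups in every library. ACLY fell by 0.53 (adjusted p = 0.00105) and FADS1 fell by 0.31 (adjusted p = 0.00349). FASN and ACACA, which build the chain itself, were not called: FASN had 35.1, 32.0 and 32.5 TPM against 38.3, 24.4 and 31.6 TPM (log2 fold change -0.10, 95% interval -0.44 to 0.25), with the exosome libraries on either side of the controls, and ACACA had a log2 fold change of -0.03 (95% interval -0.17 to 0.12). ELOVL6 was higher by 0.22 (adjusted p = 0.0342), a call that was lost with the replicate number as a block (adjusted p = 0.0613), without the low filter (0.0537), without mitochondrial genes (0.0626) and on leaving out any library other than the second NID1 exosome library (0.084 to 0.113). The summed fatty acid level was 429.7 to 460.7 TPM in the controls and 304.1 to 351.0 TPM after NID1 exosomes.

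**Figure D3:**
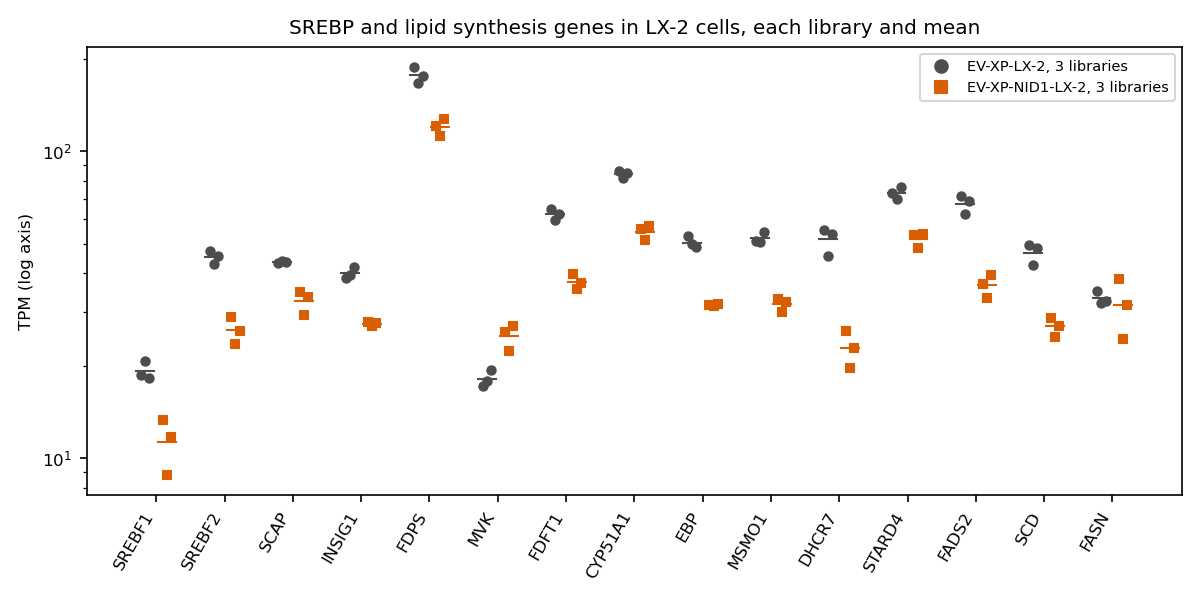
Level in TPM (log axis) of 15 genes in each of the 3 control and 3 NID1 exosome LX-2 libraries, 1 point per library. The NID1 exosome libraries lie below the controls for SREBF1, SREBF2, DHCR7, FADS2 and SCD, above them for MVK, and on either side of them for FASN.

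Other genes of these pathways are given beside the same background of 17.8% called higher and 24.6% lower. SREBP processing and partner genes had 2 higher and 3 lower of 13, among them MBTPS1, the protease that makes the first cut in SREBPs, at a log2 fold change of -0.84, ERLIN2 at -0.33 and NFYB at 0.74. The LXR and efflux or uptake list had 2 higher and 1 lower of 7 tested, with MYLIP, which marks lipoprotein receptors for degradation, at 0.66, RXRA at 0.30 and OSBPL5 at -0.52. Of the 9 isoprenoid genes 2 were higher, PGGT1B among them at 0.26, and 0 lower by limma, with 1 lower at an unadjusted p under 0.05. Sterol storage and lysosomal export had 1 higher and 2 lower of 9: LIPA, the lysosomal lipase, at -0.47, STARD3 at -0.36 and SOAT1 at 0.19. Fatty acid activation, elongation and esterification had 5 higher and 3 lower of 19 tested, with HACD3 at 0.42, ACSL1 at 0.40 and SLC25A1, the mitochondrial citrate carrier that feeds ACLY, at -0.66. Fatty acid oxidation had 3 higher and 2 lower of 10 tested, with ACADVL at -0.58, CPT2 at -0.33 and HADHB at 0.25.

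When GC and length trends were removed, 19 of the 31 were called lower and 4 higher by limma. Of the 19, 18 were also called lower without this step. LSS was newly called higher at 0.41 (adjusted p = 0.00141), and HSD17B7 was newly called lower. ACAT2 was no longer called (-0.14, adjusted p = 0.106), and its call was also lost with median-ratio scaling (adjusted p = 0.0839). SCAP was at -0.20 and the median of the 31 at -0.23, beside 0.01 over all genes tested. The second NID1 exosome library deviated from the mean of the others along GC content (Spearman's rho -0.74 over the 31 genes, which share the library, as a description), and without it 20 were lower and 4 higher, whereas leaving out any other library gave 19 lower and 2 higher.

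The third comparison set SW480 cells that overexpressed NID1 and received GW4869 against LV5. The called differences were few and small. The sterol enzymes ACAT2, SC5D and EBP and the desaturase FADS2 were lower by 1.21-fold to 1.48-fold. SCD and ACACA were higher by 1.28-fold. Neither SREBP gene was called. Of the 31 genes 30 were tested, ABCA1 being under 1 TPM in every library. By limma 4 were called lower and 2 higher, where 9.32% of the 15508 genes tested were called lower and 7.27% higher. The median log2 fold change of the 30 was -0.12, beside 0.01 over all genes tested. Epithelial markers moved too, with EPCAM higher (mean 5.03 TPM in LV5 and 9.05 TPM in LV5-NID1) and KRT8, KRT18 and KRT19 lower (summed level of the list 1633 to 1672 against 926.9 to 987.7 TPM), and their part in these results was not tested.

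LV5-NID1 replicate 3 departed from the others in these genes. FASN had 56.9, 56.3 and 56.6 TPM in LV5 and 66.3, 63.8 and 9.18 TPM in LV5-NID1. SREBF1 had 53.4, 54.9 and 48.2 TPM in LV5 and 56.5, 62.0 and 28.7 TPM in LV5-NID1. MVD had 33.0, 33.9 and 31.3 TPM in LV5 and 29.2, 22.6 and 8.23 TPM in LV5-NID1. In each the third LV5-NID1 library was far the lowest, and the same library was the lowest for PMVK (31.9 TPM), MVK (16.5 TPM) and LSS (25.6 TPM). Its log2 deviation from the mean of the other LV5-NID1 libraries fell with transcript GC content, with a Spearman's rho of -0.80 over the 30 members and -0.55 over 14551 genes, a description across genes of 1 library. Without it, 7 of the 30 were lower and 3 higher, against 13.1% and 8.38% of all genes. FASN was then higher (log2 fold change 0.20, adjusted p = 0.0289), where with all libraries it was -0.70 with a 95% interval of -2.47 to 1.06, and SREBF1 was 0.18 in place of -0.16.

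**Figure D4:**
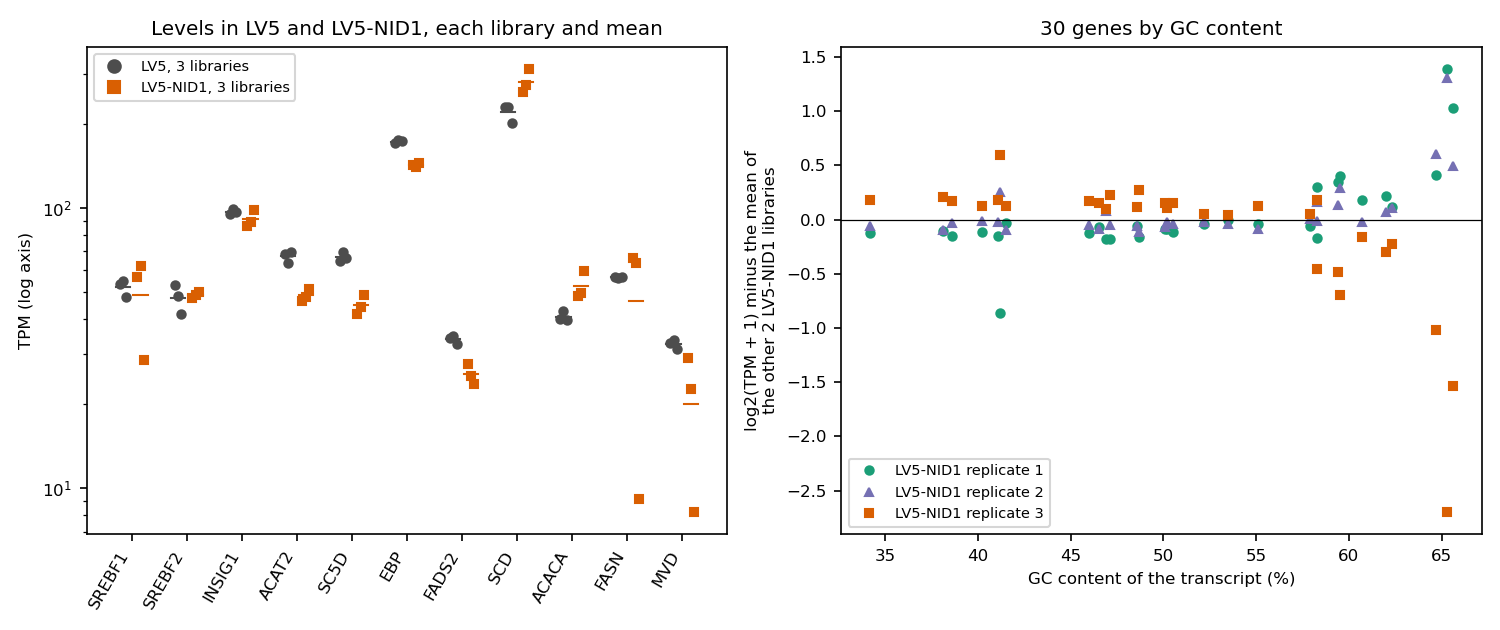
Left, level in TPM (log axis) of 11 genes in each LV5 and LV5-NID1 library, 1 point per library, where FASN, MVD and SREBF1 have a single low LV5-NID1 point, replicate 3. Right, each LV5-NID1 library's log2 deviation from the mean of the other LV5-NID1 libraries against transcript GC content in percent for 30 genes, where replicate 3 falls with GC content (Spearman's rho -0.80) and replicates 1 and 2 rise (0.75 and 0.62). Because each library is set against the others of its group, a fall in 1 library forces a rise among the others, so these are not separate patterns.

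The SREBP switch gave no call, with 0 of its 4 genes past an unadjusted p of 0.05 in either direction by limma. SREBF1 had a log2 fold change of -0.16 (95% interval -0.85 to 0.53). SREBF2 had 53.1, 48.4 and 41.7 TPM in LV5 and 47.5, 49.0 and 49.99 TPM in LV5-NID1 (log2 fold change 0.04, 95% interval -0.19 to 0.26). INSIG1 had 95.2, 99.2 and 96.6 TPM against 86.0, 89.1 and 98.6 TPM (-0.09, 95% interval -0.25 to 0.07). The groups overlapped for all 3. SCAP was at 21.0 ± 1.79 TPM in LV5 and 18.6 ± 1.72 TPM in LV5-NID1.

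The lower genes were separate from their controls in every library. ACAT2 had 68.7, 63.4 and 69.8 TPM in LV5 and 46.7, 48.1 and 51.3 TPM in LV5-NID1 (log2 fold change -0.46, SE 0.063, adjusted p = 0.00877). SC5D had 64.6, 69.7 and 66.1 TPM against 41.9, 44.4 and 48.8 TPM (-0.56, SE 0.071, adjusted p = 0.00695). EBP had 170.0, 174 and 173 TPM against 142, 139.6 and 145 TPM (-0.28, SE 0.041, adjusted p = 0.0109). Each of these is a sterol enzyme from a different stage or step. FADS2 had 34.5, 34.8 and 32.7 TPM against 27.7, 25.1 and 23.5 TPM (-0.41, SE 0.075, adjusted p = 0.0201).

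The other 6 mevalonate enzymes, the other 5 late enzymes and the 4 squalene and lanosterol enzymes were not called. HMGCS1 came nearest on the higher side, at 117 ± 5.6 TPM in LV5 and 133 ± 7.42 TPM in LV5-NID1 (log2 fold change 0.19, adjusted p = 0.0906), and MSMO1 on the lower side, at 65.8 ± 2.38 and 56.3 ± 4.84 TPM (-0.22, adjusted p = 0.0894). The largest estimate among them was that of MVD, at a log2 fold change of -0.85 (95% interval -1.88 to 0.18), and its groups did not overlap. PMVK had -0.25, MVK -0.23 and LSS -0.20, and for MVD and these genes LV5-NID1 replicate 3 was the lowest library. DHCR7 had a log2 fold change of -0.19 (95% interval -0.40 to 0.02). NSDHL had -0.13, FDPS -0.13, IDI1 -0.11, FDFT1 -0.11, TM7SF2 -0.08 and HSD17B7 -0.05, while SQLE had 0.09 and CYP51A1 0.06. The summed level of the 18 sterol enzymes was 1693 to 1699 TPM in LV5 and 1511 to 1583 TPM in LV5-NID1, without overlap.

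On the fatty acid side SCD had 229, 229.98 and 200.2 TPM in LV5 and 258, 275 and 313 TPM in LV5-NID1 (log2 fold change 0.36, SE 0.092, adjusted p = 0.048). ACACA had 40.1, 42.8 and 39.8 TPM against 48.5, 49.6 and 59.5 TPM (0.35, SE 0.09, adjusted p = 0.0488). Both stood close to the threshold, and each LV5-NID1 library lay above each LV5 library. FADS1 (0.20, adjusted p = 0.126) and ACLY (0.14, adjusted p = 0.106) were also higher in every LV5-NID1 library than in any LV5 library and were not called. ELOVL6 varied widely within LV5, at 5.85, 16.2 and 9.86 TPM against 5.70, 10.2 and 12.1 TPM. The summed level of the 7 fatty acid genes was 614.5 to 684.1 TPM in LV5 and 730.9 to 771.1 TPM in LV5-NID1. STARD4 was at 27.3 ± 2.84 and 32.4 ± 2.54 TPM (0.24, adjusted p = 0.135).

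The related lists stand beside a background of 7.27% called higher and 9.32% lower. By limma 1 of 13 SREBP processing and partner genes was higher (NFYA, 0.45) and 0 lower, with 4 higher and 2 lower at an unadjusted p under 0.05. In the LXR and efflux or uptake list ABCG1 was higher (0.71) as 1 of 8, with 0 lower (unadjusted, 2 higher and 1 lower), and in the isoprenoid branch PDSS1 (0.31) as 1 of 9, with 0 lower (unadjusted, 1 and 0). Sterol storage and lysosomal export had 1 higher and 3 lower of 8 tested, with NPC2 at -0.89, SOAT1 at -0.64 and LBR, which has sterol reductase activity, at 0.30. Fatty acid activation, elongation and esterification had 1 higher and 3 lower of 18 tested: ACSL3 at -0.54, SLC25A1 at -0.26 and DGAT2, which completes triglycerides, at 0.47. Fatty acid oxidation had 4 lower and 0 higher of 11 tested by limma (unadjusted, 6 and 0), among them ACAA2 at -0.36, ACADVL at -0.26 and HADHA at -0.25.

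Calls in this comparison changed with single libraries: without LV5 replicate 1, 2 or 3 or LV5-NID1 replicate 1 or 2, 0 were called higher by limma (unadjusted, 3, 5, 2, 6 and 2) and 2, 2, 3, 4 and 2 lower. With the replicate number as a block 0 were higher and 2 lower (unadjusted, 3 and 6), and with GC and length trends removed the FADS2 call was lost (-0.16, adjusted p = 0.229).

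Set side by side, the comparisons share no library. In SW480-LM3 and in LX-2 after NID1 exosomes, 9 genes were called lower in both: ACAT2, CYP51A1, EBP, FADS1, FDFT1, FDPS, INSIG1, MSMO1 and NSDHL. They were 9 of the 15 lower in SW480-LM3, where 61.3% of all 31 were lower in LX-2, and 9 of the 19 (47.4%) lower in LX-2, where 48.4% of all 31 were lower in SW480-LM3, so the shared count is near what the whole set gives. MVK was called higher in both, out of 15 and 3. Called higher in SW480-LM3 and lower in LX-2 were 9 genes, SREBF1, SREBF2, SCAP, MVD, SQLE, DHCR7, STARD4, ACLY and SCD. They were 9 of the 15 higher in SW480-LM3, where 61.3% of all 31 were lower in LX-2, so this count too is near what the whole set gives. Called lower in SW480-LM3 and higher in LX-2 were 2, IDI1 and ELOVL6. The 2 genes higher in LV5-NID1, SCD and ACACA, were among the 15 higher in SW480-LM3 (48.4% of all 31), and SCD was lower in LX-2. ACAT2, EBP and SC5D, 3 of the 4 lower in LV5-NID1, were among the 15 lower in SW480-LM3, and ACAT2, EBP and FADS2 among the 19 lower in LX-2 (61.3% of all 31). ACAT2 and EBP were called lower in all 3 comparisons, with ACAT2 losing its call under the settings given above and EBP losing its call in LV5-NID1 with quantile normalization (adjusted p = 0.05), the replicate block (0.0543) and on leaving out LV5 replicate 1 or 2 or LV5-NID1 replicate 2 (0.0504 to 0.0621).

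Some of these values depend on how reads were assigned, and the counting is not stated in the sources used here. By GENCODE 29, 79.4% of the exonic bases of CYP51A1 are shared with AC000120.2 on the same strand, and 33.9% of those of ACAT2 with SOD2-OT1, 18.6% of FDPS with RUSC1-AS1 and 15.0% of HMGCS1 with AC114947.2 on the opposite strand. FADS1 and FADS2 share 490 exonic bases on opposite strands. FDPS has 8 named pseudogenes, CYP51A1 3, HSD17B7 2, SCD 1 and FADS2 1. Reads of these genes could be split or merged by the counting, and the kit is not stated to keep strand.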

How the data were processed

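Polyadenylated RNA was selected on oligo(dT) beads, fragmented and copied with random hexamers, per the labels' protocols. HISAT2 2.1.0 and Bowtie2 2.3.5 are named without a role in the submitters' processing notes, while the sources used here do not name the tool that counted reads, its annotation or its genome build. The deposited table of SW480-P and SW480-LM3 holds a normalised signal, that is read counts the authors divided by size factors: every value was a whole number of reads within 0.05 read once each library's step was found, and these recovered counts entered edgeR 4.0.16 and DESeq2 1.42.0 as alternatives. The other 2 tables hold TPM as the authors deposited them. All tests used limma 3.58.1 in R 4.3.3 with a variance trend on log2(value + 1), over genes at 1 or more in at least 3 of 6 libraries, separately in each table; p-values were adjusted by the Benjamini-Hochberg method over all genes tested, and genes were called at an adjusted p under 0.05. Folds given as fold are ratios of means, whereas log2 fold changes are on the log2(value + 1) scale and understate low genes. SD is over the 3 libraries of a group. SE is limma's standard error of the log2 fold change, from the libraries of both groups. Its variance is drawn toward a trend over all genes tested. GC content and transcript length came from GENCODE 29, and removing their trends with natural splines of 4 degrees of freedom was an alternative chosen after seeing the data. All 31 genes are named; every library is given for the 2 called genes with the smallest adjusted p per role and comparison and for SREBF1, SREBF2 and INSIG1, a few more being chosen after their values were seen; of each related list up to 3 called genes with the smallest adjusted p are named, except some that are not reported here. The genes, lists and tests were chosen with earlier results of these data known. The pipeline was tested on simulated data.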

Additional observations from a re-analysis of the deposited data

How the results depend on the processing

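Of the values of single genes over all alternatives, 575 of 588 in SW480-LM3 kept their direction and side of the threshold. In LX-2 494 of 527 did so and in LV5-NID1 459 of 510. The LX-2 and LV5-NID1 counts include scaling to a common total, which could change nothing there. Each TPM library already summed to about 1000000, so those values were kept by construction. Scaling to a common total moved the median of all genes by 0.26 in SW480-LM3, where 16 of the 31 were then higher and 13 lower. Among all called genes the higher share moved from 41.9% to 53.4% in LX-2 with GC and length trends removed and from 43.8% to 54.7% in LV5-NID1 with quantile normalization, and there to 26.2% with the replicate block and to 25.9% without LV5 replicate 1 or LV5-NID1 replicate 2. The cause of these shifts was not tested. Depth limits ABCA1 in SW480-P to 4 to 10 reads, and is unknown in the TPM tables.

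The 2 genes higher in LV5-NID1 became 1 with a pseudocount of 0.1 or with median-ratio scaling, 5 with quantile normalization, 0 (by limma) without the low filter (6 at an unadjusted p under 0.05), without mitochondrial genes (3), without the variance trend (3) and with the replicate block (3), and 0 to 3 leaving out 1 library at a time. The 4 lower genes became 2 with the replicate block and 2 to 7 leaving out 1 library. With the replicate block SW480-LM3 had 15 higher and 15 lower, and LX-2 had 2 higher and 19 lower. The numbers did not pair the libraries: the deviations of same-numbered libraries correlated at -0.05 to 0.06, and in LX-2 replicate 3 and in LV5 replicate 1 were the numbers whose libraries both matched each other best.

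In SW480-LM3, MSMO1 reversed to 0.126 with GC and length trends removed, and FADS2 to 0.261 with total scaling. In LX-2, PMVK reversed to 0.055, 0.032 and 0.111 with quantile normalization, median-ratio scaling and trends removed, ACACA to 0.035, 0.034 and 0.051, ABCA1 to 0.117, 0.05 and 0.04, and FASN to 0.146 with trends removed. In LV5-NID1 with trends removed, TM7SF2 reversed to 0.262, SREBF1 to 0.268 and SCAP to 0.141, and HSD17B7 reversed to 0.015 with quantile normalization. Leaving out 1 library at a time, the log2 fold change ran from -0.042 to 0.042 for FADS2 in SW480-LM3. In LX-2 it ran from -0.077 to 0.035 for PMVK, -0.07 to 0.018 for ACACA, -0.032 to 0.053 for ABCA1 and -0.247 to 0.067 for FASN. In LV5-NID1 it ran from -0.213 to 0.041 for TM7SF2, -0.089 to 0.008 for HSD17B7, -0.361 to 0.182 for SREBF1, -0.054 to 0.117 for SREBF2, -1.165 to 0.197 for FASN and -0.455 to 0.207 for ELOVL6.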
